A study of Mus musculus with 6 samples.

Results

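The complement genes described here were 9 components of the complement cascade, C1qa, C1qb, C1qc, C1ra, C1s1, C3, C4b, Cfb and Cfd. They were taken by name, with earlier results of these data known, from the 31055 gene features counted in single cells of C3Tag mouse mammary tissue, and were followed through macrophage-like, fibroblast-like, epithelial-like and endothelial-like cells. All animals were female and carried the SV40 large T antigen under the C3(1) promoter, which comes from a rat prostatic secretory protein gene and drives the oncogene in mammary epithelium. The promoter's name has no link to complement C3. There was no group without the transgene. The Prepuberty group (glands at 5 weeks of age), the DCIS group (whole glands at 14 weeks that contained in situ lesions) and the Tumor group (palpable tumours at more than 18 weeks) had 2 libraries each. DCIS stands for ductal carcinoma in situ.

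The labels number the libraries without saying that they came from separate animals, so the p-values below measure the spread between libraries, which may be technical. The labels give 1 digestion protocol and 1 kit for every library, but the methods section describes a separate kit for breaking up tumour tissue and a newer capture chemistry for Tumor 2. An effect of the dissociation kit cannot be told apart from the Tumor state. The newer chemistry touched 1 of the 2 Tumor libraries, and values without Tumor 2 are given beside the calls of the 9 members.

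Complement is a chain of plasma and tissue proteins that mark and lyse cells and call in phagocytes. In the classical pathway C1q, assembled from the chains of C1qa, C1qb and C1qc, recognises its target and switches on the proteases C1r and C1s, which cut C4 and C2. All routes meet at C3, and factor B and factor D (also called adipsin, a product of fat cells) form the loop that amplifies C3 cleavage. The liver makes most plasma complement, tissue macrophages are the well-known source of C1q, and stromal cells make several of the other components locally.

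The 3 C1q chain genes lie side by side on mouse chromosome 4, all on the minus strand, with C1qb at 136880129-136886187, C1qc at 136889804-136893065 and C1qa at 136895917-136898803 (GRCm38). C1ra (124512405-124523443, plus strand) and C1s1 (124530345-124542359, minus strand) are neighbours on chromosome 6. C4b (34728380-34743882), Cfb (34856374-34862518) and C3 (57203970-57228136) are on the minus strand of chromosome 17, and Cfd is on the plus strand of chromosome 10 at 79890853-79892655. C1ra and C1s1 have close copies, C1rb and C1s2, so reads may have been split between the copies and the levels of both members are uncertain to that extent. The same holds for C4b and its copy C4a, which was not among the counted features.

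RefSeq promoters of the GRCm38.p6 build, each 250 bases before to 50 bases after the start site, were found for 6 of the 9 members. The 4 printed here belong to C1qb and C1qc, which shared the macrophage-like pattern with C1qa, and to C3 and C1ra. C3 and C1ra were lower in Tumor fibroblast-like cells, as was C1s1, whose 2 windows are not printed. C1qa, C4b and Cfb were the members without a promoter. Capitals mark matches on either strand to the letters AGGAAGT (an ETS-type core, as bound by the macrophage factor PU.1), TTGCNNAA (a C/EBP-type core) or TTCNNNGAA (a GAS-type element of the STAT factors). No match overlapped another. Among all 32851 promoters of the same length in the table, 9.35% held the ETS-type letters, 10.8% the C/EBP-type letters and 8.3% the GAS-type letters.
C1qb, chr4:136886151-136886450, minus strand: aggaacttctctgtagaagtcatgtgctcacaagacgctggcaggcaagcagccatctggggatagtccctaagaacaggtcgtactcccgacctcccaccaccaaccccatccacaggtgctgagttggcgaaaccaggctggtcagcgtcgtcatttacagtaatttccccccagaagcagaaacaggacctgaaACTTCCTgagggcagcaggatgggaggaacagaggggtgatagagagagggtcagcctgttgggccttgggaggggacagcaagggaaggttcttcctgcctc
C1qc, chr4:136892865-136893164, minus strand: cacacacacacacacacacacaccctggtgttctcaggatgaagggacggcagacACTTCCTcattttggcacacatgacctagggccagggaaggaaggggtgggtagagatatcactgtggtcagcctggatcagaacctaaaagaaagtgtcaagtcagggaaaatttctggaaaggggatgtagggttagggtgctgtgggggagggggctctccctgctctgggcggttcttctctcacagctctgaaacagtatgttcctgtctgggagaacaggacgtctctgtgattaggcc
C3, chr17:57228087-57228386, minus strand: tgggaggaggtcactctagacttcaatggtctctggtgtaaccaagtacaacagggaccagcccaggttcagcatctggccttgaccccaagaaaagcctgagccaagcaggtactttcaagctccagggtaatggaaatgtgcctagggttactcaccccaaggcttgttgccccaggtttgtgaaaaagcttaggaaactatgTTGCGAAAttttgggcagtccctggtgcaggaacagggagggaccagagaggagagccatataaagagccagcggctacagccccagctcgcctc
C1ra, chr6:124512371-124512670, plus strand: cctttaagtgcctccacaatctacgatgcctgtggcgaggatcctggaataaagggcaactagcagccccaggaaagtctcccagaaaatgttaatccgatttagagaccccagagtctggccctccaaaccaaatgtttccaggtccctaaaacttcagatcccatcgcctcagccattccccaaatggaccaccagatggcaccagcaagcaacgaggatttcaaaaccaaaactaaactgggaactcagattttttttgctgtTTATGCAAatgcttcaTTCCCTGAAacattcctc

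The ETS-type letters began 53 bases before the C1qb start and 195 bases before the C1qc start, read on the opposite strand in both. The C3 promoter held the C/EBP-type letters 45 bases before its start. In C1ra the C/EBP-type and the GAS-type letters lay after the start site, and the first window of C1s1 held the C/EBP-type letters 242 bases before its start. The second window of C1s1 and the Cfd promoter held none of the letters searched. These are matches of letters and not mapped binding sites.

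After filtering, 21537 of 23835 barcodes were kept, with 237076023 UMIs (unique molecular identifiers, each 1 captured transcript) in all and 28564804 to 57189896 per library. Any pair of libraries shared at most 0.826% of the barcodes of the smaller one. Cells were clustered without complement genes and clusters were named from marker lists that hold no complement gene. The macrophage-like class had 84 to 425 cells per library, the fibroblast-like class 228 to 2068, the epithelial-like class 142 to 2468 and the endothelial-like class 33 to 712. A level below is given as CPM, the gene's UMIs summed over the cells of 1 class in 1 library and scaled to a total of 1000000 UMIs, so low values rest on few molecules. CPM is not divided by transcript length, so it ranks cell types and libraries for 1 gene and not genes against each other. A T antigen UMI was found in 27.6% and 44.4% of the Tumor fibroblast-like cells and in at most 0.64% of those in the other libraries. The 10 epithelial markers summed to 631 and 216 CPM in Tumor fibroblast-like cells and to between 19.4 and 104 CPM in the other 4 libraries. In Tumor 1, cluster 0 of the fibroblast-like class went against its label, with fibroblast markers at 164 CPM (2689 to 9460 CPM in the other libraries) and T antigen in 64% of its 50 cells.

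**Figure D1:**
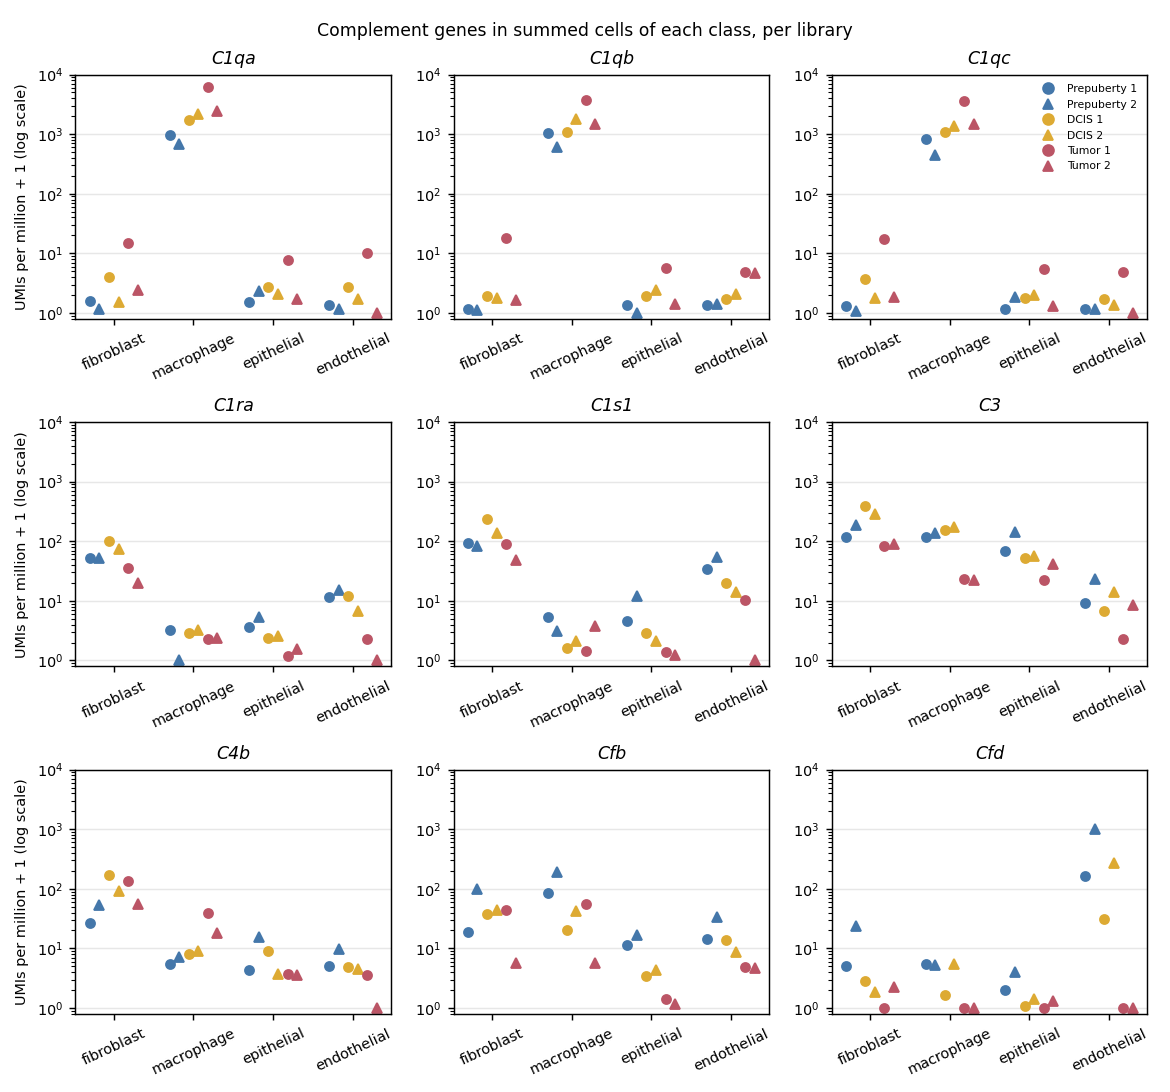
Level of each complement gene (CPM + 1, log axis) in macrophage-like, fibroblast-like, epithelial-like and endothelial-like cells, 1 point per library, coloured by state. The C1q chains stand between 437 and 6216 CPM in macrophage-like cells and near or below 17.1 CPM elsewhere, C1ra and C1s1 are highest in fibroblast-like cells, and Cfd is highest in endothelial-like cells of Prepuberty and DCIS.

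In each library the recognition chains were found in macrophage-like cells and almost nowhere else. C1qa stood at 968 and 683 CPM in Prepuberty macrophage-like cells, at 1715 and 2216 CPM in DCIS and at 6216 and 2435 CPM in Tumor. C1qb stood at 1055 and 599 CPM in Prepuberty, at 1102 and 1825 CPM in DCIS and at 3709 and 1478 CPM in Tumor. In plain CPM the 3 states did not overlap for C1qa, and for C1qb only the DCIS and Tumor libraries did. C1qc stood at 821 and 437, then 1092 and 1366, then 3561 and 1471 CPM in the same order, and its states did not overlap either. With the TMM scaling used for the fold changes, C1qa was 1711 CPM in Tumor 2 against 2125 and 2566 CPM in DCIS, and Tumor and DCIS overlapped for all 3 chains. Over all libraries, 97.5% of C1qa UMIs, 97.1% of C1qb UMIs and 97.0% of C1qc UMIs came from macrophage-like cells.

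The C1q differences between states did not pass the test. In macrophage-like cells C1qa was 1.35 higher in DCIS than in Prepuberty on the log2 scale (SE 0.57, adjusted p = 0.435 by edgeR's quasi-likelihood test with Benjamini-Hochberg adjustment), and 0.66 higher in Tumor than in DCIS (SE 0.56, adjusted p = 0.485). C1qb differed by 0.90 and 0.35, and C1qc by 1.04 and 0.55, in the same comparisons. With 1 library left out, the differences between DCIS and Prepuberty ranged from 1.01 to 1.85 for C1qa. They ranged from 0.45 to 1.61 for C1qb and from 0.57 to 1.82 for C1qc. Without Tumor 1 the differences between Tumor and DCIS turned to -0.50 for C1qa, -0.79 for C1qb and -0.55 for C1qc. On the TMM scale, 23% of all genes tested in these cells were higher in DCIS than in Prepuberty with no overlap between the libraries, as the 3 chains were, and 31.2% were higher in Tumor than in DCIS with no overlap, which none of the chains was.

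When libraries were clustered without integration, the class came apart by state. A cluster led by Pf4, Ccl4 and Ccl5 (cluster 13) then held 99 of 100 and 80 of 84 Prepuberty cells of the class, 236 of 244 and 162 of 168 DCIS cells, and 54 of 425 and 33 of 185 Tumor cells. A cluster led by H2-Ab1, Lyz2 and Cd74 (cluster 17) held 306 and 107 Tumor cells and at most 6 cells of any other library. In cluster 13, C1qa stood at 1635 and 2205 CPM in DCIS and at 1964 and 279 CPM in Tumor, whereas in cluster 17 it stood at 6792 and 3434 CPM in Tumor. The states of the class were therefore compared over cells that fell into different clusters, and the part of this in the C1q values was not tested.

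Within the class the C1q genes were not spread evenly. All 3 chains were detected in 41% and 25% of Prepuberty macrophage-like cells, in 57.0% and 57.1% of DCIS cells and in 60% and 40.5% of Tumor cells. Cells without any C1q UMI made up 26%, 63.1%, 20.5%, 17.9%, 34.8% and 55.1% of the class in the order Prepuberty 1 and 2, DCIS 1 and 2, Tumor 1 and 2. The share without C1q was therefore highest in Prepuberty 2 and Tumor 2. When every cell was thinned to 1500 UMIs, the share with C1qa was 51.8% and 29.3% in Prepuberty, 56.6% and 66.4% in DCIS and 70.8% and 48.2% in Tumor, against 59%, 34.5%, 68.4%, 72.6%, 63.3% and 43.8% before thinning. Between 9 and 82 macrophage-like cells per library were too shallow for the thinned share. The 10 neutrophil markers summed to 5502 CPM in Tumor 2 macrophage-like cells and to between 933 and 1440 CPM in the other 5 libraries. Cells called neutrophils by their own markers were nevertheless found in both Tumor libraries. Without them the class held 377 of 425 cells in Tumor 1 and 142 of 185 in Tumor 2. In Prepuberty it held 99 of 100 and 84 of 84, and in DCIS 241 of 244 and 168 of 168. The part of such cells in the C1q-free share was not tested. The class kept its own markers throughout, with at least 10 of 11 macrophage markers detected in every library and Cx3cr1 at 0 in both Prepuberty libraries.

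The balance of the chains differed between libraries. C1qa made up 34.0% (95% exact binomial interval 31.4% to 36.7%) and 39.7% (36.4% to 43.2%) of the C1q UMIs of Prepuberty macrophage-like cells. It made up 43.9% and 41.0% in DCIS, and 46.1% (45.5% to 46.7%) and 45.2% (44.1% to 46.3%) in Tumor. The C1qa share was therefore lowest in the Prepuberty libraries and highest in the Tumor libraries, with no overlap, while C1qb had the reverse order at 37.1% and 34.8%, 28.2% and 33.8%, and 27.5% and 27.4%. The intervals cover counting error only, and the states were not tested.

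Outside macrophage-like cells C1q was near the level seen in cells that should lack it. The summed C1q level in epithelial-like, fibroblast-like and endothelial-like cells was between 0.02% and 0.35% of the macrophage-like level of the same library, and in T-cell-like cells, a lymphocyte class not known for C1q, it was between 0.138% and 0.335%. In Tumor 1, a C1qa UMI was found in 9.40% of epithelial-like cells (median 13172 UMIs) and in 2.27% of 176 T-cell-like cells (median 1867 UMIs). After thinning to 1500 UMIs these shares were 1.10% and 1.69%, with 5 and 58 cells too shallow, so the epithelial-like share did not exceed that of T-cell-like cells. All non-macrophage cells together held the chains in the ratio 40.6% to 30.3% to 29.2% over 1447 UMIs, against 44.8% to 28.5% to 26.7% over 51473 UMIs in macrophage-like cells. Higher values were found in small classes of Tumor 1, where B-cell-like cells (39 cells) reached 2.47% and dendritic-like cells (30 cells) 1.62% of the macrophage-like level. Outside Tumor 1, Schwann-like cells of DCIS 1 (23 cells) reached 0.668% and dendritic-like cells of DCIS 2 (27 cells) 0.377%. The fibroblast-like value of Tumor 1 (0.35%) was above that of T-cell-like cells in the same library (0.138%). No expression is read from the C1q counts of epithelial-like or fibroblast-like cells, and the source of these counts was not tested.

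**Figure D2:**
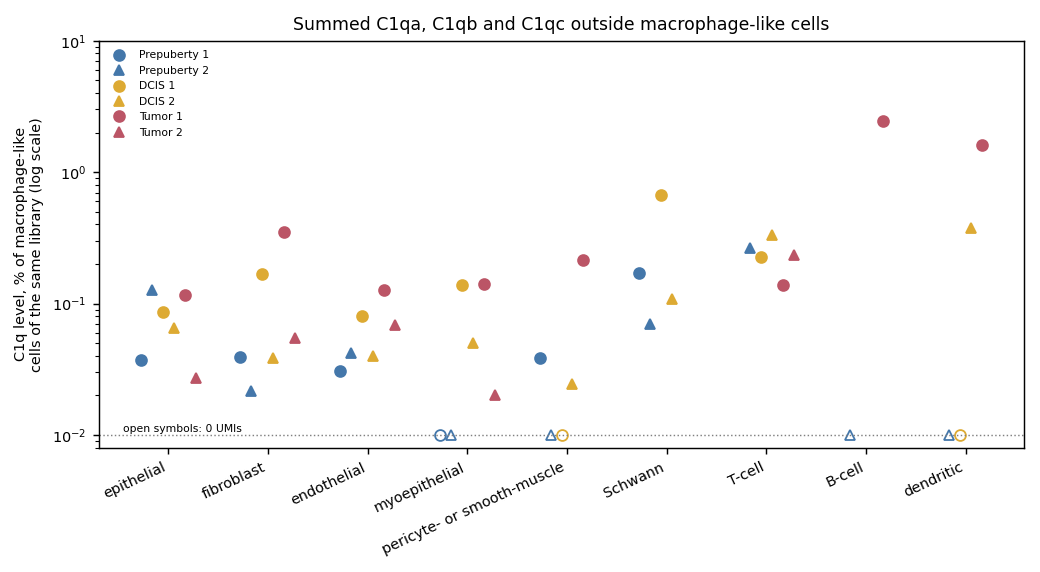
Summed level of C1qa, C1qb and C1qc in each cell class as a percentage of the macrophage-like level of the same library (log axis), 1 point per library, coloured by state. Open symbols stand for 0 UMIs. Epithelial-like, fibroblast-like and endothelial-like cells sit at 0.35% or lower, and T-cell-like cells between 0.138% and 0.335%.

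The proteases that C1q switches on were found in stromal cells and hardly at all in macrophage-like cells. C1ra stood at 51.2 and 51.0 CPM in Prepuberty fibroblast-like cells, at 100.3 and 71.9 CPM in DCIS and at 34.6 and 18.7 CPM in Tumor. C1s1 stood at 94.1 and 81.5, 238 and 137, and 89.1 and 47.2 CPM in the same order. For both proteases the DCIS fibroblast-like libraries were the highest of the 3 states. Macrophage-like cells held at most 2.27 CPM of C1ra and at most 4.38 CPM of C1s1, on 4 UMIs or fewer per library. Pericyte- or smooth-muscle-like cells overlapped with fibroblast-like cells for both genes, at 25.3 to 79.4 CPM of C1ra and 65.0 to 149 CPM of C1s1 over 5 libraries.

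Both proteases were lower in Tumor than in DCIS fibroblast-like cells. C1ra fell by 2.33 on the log2 scale (SE 0.49, adjusted p = 0.0255 by edgeR's quasi-likelihood test with Benjamini-Hochberg adjustment), and C1s1 fell by 2.09 (SE 0.52, adjusted p = 0.0417). The TMM scaling used for the fold changes moves all fibroblast-like genes by -0.72 in this comparison relative to plain library totals, so these values are changes relative to most genes of the class. Neither call was stable. C1ra no longer passed without DCIS 1 (adjusted p = 0.15), without DCIS 2 (0.131) or without Tumor 2 (0.0656), and C1s1 no longer passed in 5 of the 6 leave-outs (0.0645 to 0.232, and 0.115 without Tumor 2) or without T antigen cells (-1.56, adjusted p = 0.0691). Neither passed with clusters made without integration (adjusted p = 0.0823 for C1ra and 0.113 for C1s1) or with classes from the markers of each cell (0.0707 and 0.0968), and C1s1 lost its call when the Prepuberty libraries were kept out of the fit (0.0597).

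Of the 8 members tested in fibroblast-like cells, 3 were called lower in Tumor, where 5.13% of the 12162 genes tested were called lower and 12.7% were called in either direction (915 higher and 624 lower, or 2654 higher and 377 lower with plain library totals). The third was C3, the protein on which all complement routes converge. C3 stood at 117 and 187 CPM in Prepuberty fibroblast-like cells, at 385 and 286 CPM in DCIS and at 82.2 and 88.2 CPM in Tumor. Its DCIS libraries were above all others, and the Tumor libraries were below all others. Of all genes tested in these cells, 28.7% were lower in Tumor than in DCIS with no overlap. From DCIS to Tumor it fell by 2.67 on the log2 scale (SE 0.39, adjusted p = 0.0114). It kept its call in each alternative other than leaving out a library, and lost it without DCIS 1 (adjusted p = 0.0765) and without DCIS 2 (0.086). Without Tumor 2 it passed (0.0443). Without cluster 0, C3 still passed (-2.38, adjusted p = 0.0266), whereas C1ra (-1.91, adjusted p = 0.0599) and C1s1 (-1.53, adjusted p = 0.0937) did not.

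The fibroblast-like class was made of 4 clusters whose shares differed between states. Cluster 8, led by Crabp1, Col1a1 and Mfap4, held 105 of 228 and 118 of 275 Tumor cells. Cluster 4, led by Gsta1, Gm3776 and Pi16, held 22 and 15. In cluster 4, C3 stood at 358 and 238 CPM in Prepuberty, 539 and 521 CPM in DCIS and 376 and 629 CPM in Tumor, so that its Tumor and DCIS libraries overlapped. In cluster 8, C3 stood at 16.6 and 239, 306 and 96.3, and 16.1 and 28.8 CPM, with both Tumor libraries below both DCIS libraries. A T antigen UMI was found in 20% and 58.5% of the Tumor cells of cluster 8, and without those cells C3 stood there at 17.1 and 26.0 CPM. C1ra in cluster 4 stood at 83.2 and 54 CPM in DCIS and at 101 and 65.8 CPM in Tumor, and C1s1 there at 227 and 113 CPM in DCIS and at 293 and 388 CPM in Tumor. The lower class levels of C1ra, C1s1 and C3 in Tumor were thus not seen in every cluster. When libraries were clustered without integration, the states fell mostly into different fibroblast clusters. Clusters 0 and 1 of that clustering held 0 and 1 cells of Tumor 1 and 0 and 11 of Tumor 2. Its cluster 18 held 167 and 28 Tumor cells, and its cluster 19 held 185 cells of Tumor 2 and at most 1 of any other library. The part that cluster shares or this split played in the class difference was not tested.

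**Figure D3:**
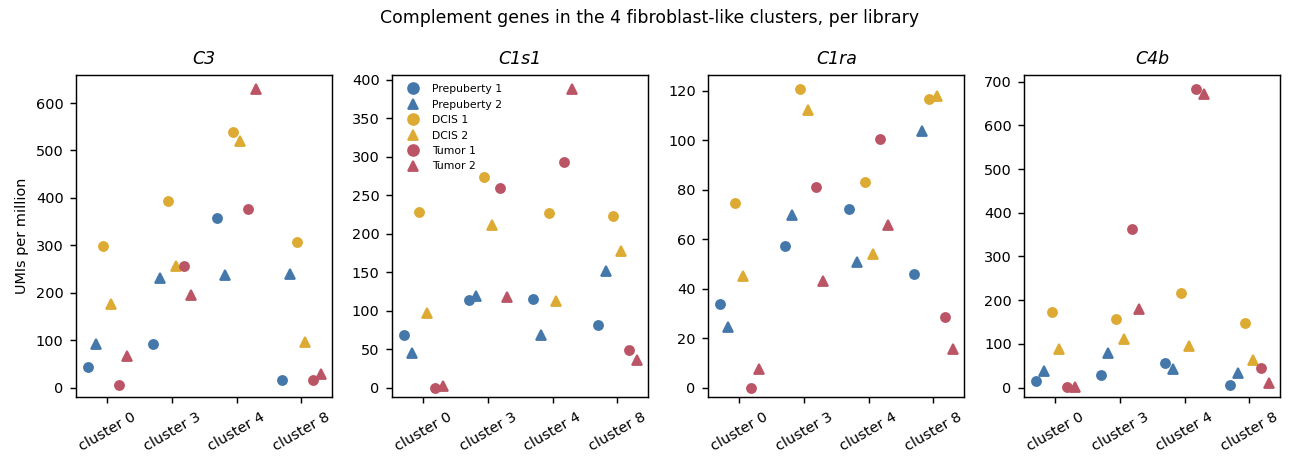
Levels of C3, C1s1, C1ra and C4b (CPM, linear axis) in the 4 fibroblast-like clusters, 1 point per library, coloured by state. C3 in cluster 4 overlaps between Tumor (376 and 629 CPM) and DCIS (539 and 521 CPM), whereas in cluster 8 the Tumor libraries (16.1 and 28.8 CPM) lie below the DCIS libraries.

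C4b, which is cleaved by C1s and joins the C3 convertase, followed fibroblast-like cells as well. It stood at 25.5 and 52.3 CPM in Prepuberty, at 173 and 91.9 CPM in DCIS and at 136 and 54.4 CPM in Tumor fibroblast-like cells. The Tumor and DCIS libraries overlapped, and the difference of -1.08 (SE 0.63, adjusted p = 0.279) did not pass, although leaving out 1 library gave from -2.24 without Tumor 1 (adjusted p = 0.0496) to -0.50 without Tumor 2 (adjusted p = 0.637). In cluster 4 C4b stood at 217 and 94.9 CPM in DCIS and at 682 and 673 CPM in Tumor, on 156 and 92 UMIs in Tumor. In cluster 0 it stood at 172 and 88.2 CPM in DCIS and at 1.18 and 0.566 CPM in Tumor, where that cluster held T antigen cells. Myoepithelial-like cells came next, at 4.79 to 98.8 CPM over 6 libraries.

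In macrophage-like cells C4b stood near background in Prepuberty and DCIS, with its highest values in the Tumor libraries. It stood at 4.38 and 6.31 CPM in Prepuberty, at 7.14 and 7.94 CPM in DCIS and at 38.2 and 17.2 CPM in Tumor, on 2 to 87 UMIs. T-cell-like cells held at most 1 C4b UMI per library, or 4.54 CPM. The difference of 1.39 between Tumor and DCIS (SE 0.59) had an unadjusted p of 0.0382 and did not pass after adjustment (adjusted p = 0.165), although leaving out 1 library gave from 0.37 without Tumor 1 (adjusted p = 0.737) to 1.96 without Tumor 2 (adjusted p = 0.0496).

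C3 moved in macrophage-like cells too. It stood at 118 and 135 CPM in Prepuberty, at 153 and 174 CPM in DCIS and at 22.4 and 21.3 CPM in Tumor. The 4 libraries of the earlier states lay far above both Tumor libraries, and 28.1% of all genes tested in these cells were lower in Tumor than in DCIS with no overlap. From DCIS to Tumor it fell by 3.45 on the log2 scale (SE 0.36, adjusted p = 0.0017 by edgeR's quasi-likelihood test with Benjamini-Hochberg adjustment). C3 was the 1 member called among the 6 tested in these cells, where 6.42% of the 7604 genes were called and 3.98% were called lower (185 higher and 303 lower, or 730 and 169 with plain library totals). The class could not be fitted with clusters made without integration, where its Tumor and DCIS cells lay mostly in different clusters. In cluster 13 of that clustering, C3 stood at 116 and 142 CPM in Prepuberty, 155 and 182 CPM in DCIS and 65.1 and 4.84 CPM in Tumor, the last on 11 and 2 UMIs, and in cluster 17 it stood at 17.7 and 26.0 CPM in Tumor. The call held in all 13 alternatives that could be fitted and in all 6 leave-outs, where its adjusted p was between 0.001 and 0.0368 (0.00442 without Tumor 2). Without cells called neutrophils by their own markers C3 fell by 3.48 (adjusted p = 0.002), and with plain library totals it fell by 2.88 (adjusted p = 0.00271). The share of macrophage-like cells with a C3 UMI was 34%, 34.5%, 46.3%, 36.9%, 9.41% and 13% in the 6 libraries, and 9.64%, 12%, 21.2%, 16.4%, 2.62% and 2.88% after thinning to 1500 UMIs, so the difference was seen at equal depth. In T-cell-like cells, taken as background, at most 1 C3 UMI was found per library, in 0% to 3.33% of cells and in 0% to 1.69% after thinning (median 1221 to 2526 UMIs per cell, against 3825 to 6356 in macrophage-like cells). Dcn, a matrix gene of fibroblasts, also had lower values in Tumor macrophage-like cells, at 70.1 and 46.3 CPM in Prepuberty, 18.2 and 30.6 CPM in DCIS and 3.07 and 6.86 CPM in Tumor. In DCIS fibroblast-like cells Dcn stood at 6546 and 4844 CPM beside the 385 and 286 CPM of C3. The part of fibroblast RNA in the macrophage-like C3 difference was not tested.

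Epithelial-like cells held less C3 per UMI than fibroblast-like cells of the same library, at 66.7 and 142 CPM in Prepuberty, 51.7 and 55.5 CPM in DCIS and 21.3 and 40.1 CPM in Tumor. The difference of -1.25 between Tumor and DCIS (SE 0.39, adjusted p = 0.115) did not pass. The C3 change in fibroblast-like cells was more negative than in epithelial-like cells (log2 difference -1.50, SE 0.48, adjusted p = 0.0627 in the joint fit, where 9.7% of the 13674 genes were called), which did not pass either, although it did without Tumor 1 (-1.92, adjusted p = 0.0251), without the filter on low counts (0.004), with a mitochondrial limit of 5% (0.0496) and with resolution 1.2 (0.0494). In the same difference, in the other direction, Cfb (2.04, adjusted p = 0.102) passed with plain library totals (0.0468), without the filter on low counts (0.00644) and without T antigen cells (0.0358). With 1 library left out, the Cfb difference was between 0.44 and 2.57. C1qb (1.84, adjusted p = 0.191), at most 17.1 CPM in either class, passed without the filter (0.0177) and without Tumor 2. With 1 library left out, the C1qb difference was between 0.71 and 2.25. No member was called in the difference of fibroblast-like with endothelial-like cells, where 2.25% of genes were called, or of epithelial-like with endothelial-like cells, where 3.37% were. Cfd, at 0 UMIs in the Tumor endothelial-like libraries, passed in both without the filter on low counts (adjusted p = 0.000928 and 4.69e-05), and in the latter also with clusters made without integration (0.0198) and with a fit of those 2 classes alone (0.0118). Cluster 9 of this class, led by the milk protein genes Csn1s1 and Csn3 and by Ltf, had the most C3 in DCIS, at 199 and 149.8 CPM, and 11.4 and 52.0 CPM in Tumor. Epithelial-like cells, the largest class in Tumor, supplied 62.3% and 52.4% of all C3 UMIs there, against 24.7% and 20.6% in DCIS. Fibroblast-like cells supplied 62.3% and 64.0% of C3 UMIs in DCIS and 17.5% and 22.8% in Tumor. These shares follow the numbers of cells captured as well as the level in each cell.

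In DCIS against Prepuberty no member was called in any of the 4 classes in the main fit. Cfd in endothelial-like cells passed with a replicate block, which treats equally numbered libraries as pairs. In epithelial-like, fibroblast-like and endothelial-like cells the test called 0 of all genes, which is 0% of those tested, and 1597, 1175 and 1202 genes had an unadjusted p under 0.05. DESeq2 called 283, 80 and 57 genes in the same classes. In macrophage-like cells 10 genes, or 0.132%, were called. Without the filter on low counts, C4b (adjusted p = 0.00194), C1qc (0.0313) and Cfd (0.000425) passed in fibroblast-like cells, Cfb in macrophage-like (0.00203) and epithelial-like cells (0.0336), and C1s1 (0.0309) and Cfd (0.000435) in endothelial-like cells. The largest fibroblast-like differences among the members were those of C1qc (3.16, SE 1.51), Cfd (-3.04, SE 1.00), C1qa (2.26, SE 1.33) and C4b (2.02, SE 0.65), followed by C3 (1.39, SE 0.37) and C1s1 (1.33, SE 0.51), with adjusted p between 0.501 and 0.577. Of these, Cfd was -1.31 without Prepuberty 2 and -0.39 with clusters made without integration, and C1qa and C1qc were 0.63 and 2.07 without DCIS 1. Of the 8 members tested there, 6 had a positive difference, C1qa and C1qc with their few UMIs among them, with a median of 1.36 against -0.04 over all genes tested, and 23.9% of all genes tested there were higher in DCIS with no overlap. This comparison and that of Tumor with DCIS share the DCIS libraries, so a high value in them enters both with opposite sign.

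**Figure D4:**
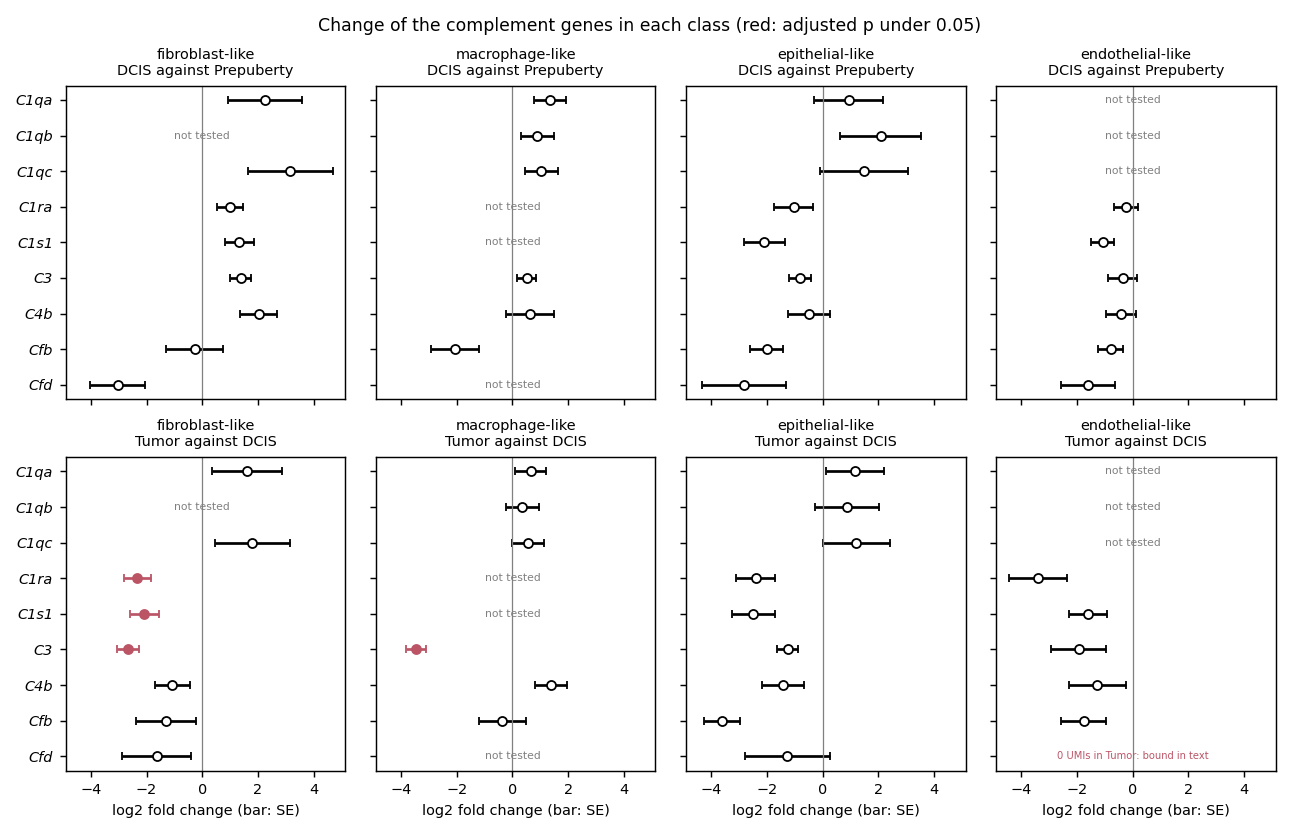
Log2 fold change of each complement gene tested in each class, for DCIS against Prepuberty and for Tumor against DCIS, with bars of 1 SE, and filled points where the adjusted p passed 0.05. Filled red points are C1ra, C1s1 and C3 in fibroblast-like cells and C3 in macrophage-like cells, all lower in Tumor. Cfd in endothelial-like cells, at 0 UMIs in Tumor, has no point in that comparison. The 2 comparisons share the DCIS libraries.

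Cfb encodes factor B, the protease part of the alternative pathway convertase, and was found in macrophage-like and fibroblast-like cells with a wide spread between libraries of 1 state. In macrophage-like cells Cfb stood at 83.2 and 193 CPM in Prepuberty, at 19.5 and 40.8 CPM in DCIS and at 54.9 and 4.80 CPM in Tumor. In fibroblast-like cells it stood at 18.1 and 99.0, 36.8 and 43.8, and 43.3 and 4.62 CPM. The lowest library was Tumor 2 in both classes. In macrophage-like cells both Prepuberty libraries lay above the other 4, while DCIS and Tumor overlapped, and in fibroblast-like cells all 3 states overlapped. The difference in macrophage-like cells between Tumor and DCIS was -0.36 (SE 0.84) and rested on which Tumor library was used, with -3.36 without Tumor 1 (adjusted p = 0.0102) and 0.54 without Tumor 2. It changed sign to 0.07 with plain library totals. In fibroblast-like cells Cfb passed without Tumor 1 (-4.08, adjusted p = 0.0442) and without the filter on low counts (-1.35, adjusted p = 0.0225).

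In epithelial-like cells Cfb had lower values at each later state, at 10.4 and 15.8 CPM in Prepuberty, 2.49 and 3.36 CPM in DCIS and 0.407 and 0.166 CPM in Tumor. The 3 states did not overlap, and the Tumor values rest on 16 and 4 UMIs. Of all genes tested in these cells, 26.2% were lower in DCIS than in Prepuberty with no overlap and 26.8% were lower in Tumor than in DCIS. Dcn had lower values in the same cells too, at 92.3 and 219 CPM in Prepuberty, 33.4 and 132 CPM in DCIS and 2.80 and 14.6 CPM in Tumor, and its part was not tested. The difference of -3.61 between Tumor and DCIS (SE 0.63) missed the threshold of 0.05 by a margin lost in rounding, and it passed in 9 alternatives, such as DESeq2-type size factors (adjusted p = 0.0481). None of the 9 members was called in epithelial-like cells, where 1.15% of the 13317 genes were called and 0.773% were called lower (50 higher and 103 lower, or 98 and 53 with plain library totals). Without the filter on low counts C1s1 (adjusted p = 0.0255), C3 (0.016) and Cfb passed, and with DESeq2 these and C1ra (0.033) did. Cluster 13 of this class held 139 of 1128 and 297 of 904 cells in DCIS and 10 of 2468 and 38 of 1199 in Tumor. When libraries were clustered without integration, epithelial clusters 3 and 4 held 1804 and 1525 cells of Tumor 1, and cluster 11 held 852 of Tumor 2. Each held at most 19 cells of any other library. Cluster 2 then held 1113 and 419 DCIS cells and 20 and 247 Tumor cells. The part of this split in the epithelial-like values was not tested.

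Endothelial-like cells held the most factor D, and less of the classical proteases than fibroblast-like cells of the same library. C1s1 stood at 33.2 and 52.7 CPM in Prepuberty, 18.7 and 13.2 CPM in DCIS and 9.24 and 0 CPM in Tumor, and these cells supplied 7.64% and 17.2% of all C1s1 UMIs in Prepuberty. C1ra, at 10.4 and 14.4, 10.9 and 5.71, and 1.32 and 0 CPM, had a difference of -3.40 between Tumor and DCIS (SE 1.04, adjusted p = 0.0629), which did not pass, rested on 1 and 0 Tumor UMIs and was between -8.21 and -2.78 with 1 library left out. Without the filter on low counts C1ra (adjusted p = 0.00584), C1s1 (0.0186) and Cfb (0.0471) passed, and C1ra also did without adipocyte-marker cells (0.0339). Only 76 and 33 endothelial-like cells were captured in Tumor, so a count of 0 there allows up to 3.96 CPM in Tumor 1 and 11.1 CPM in Tumor 2.

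Cfd, the serine protease that cuts factor B, was concentrated in the endothelial-like class. It stood at 162 and 999 CPM in Prepuberty, at 30.0 and 273 CPM in DCIS and at 0 in both Tumor libraries, on 931, 6878, 85, 765, 0 and 0 UMIs. Of all genes tested in these cells, 31% were lower in Tumor than in DCIS with no overlap. The libraries of 1 state differed widely, with Prepuberty 2 and DCIS 2 well above Prepuberty 1 and DCIS 1. With the UMIs of each state pooled and set against the limit of 3 UMIs over the Tumor group, Cfd was at least 51.6-fold lower in Tumor than in DCIS and at least 212-fold lower than in Prepuberty. These bounds cover counting error only and not the spread between libraries. The bound against DCIS was 10.3 without DCIS 2 and 13.6 without Tumor 1, and that against Prepuberty was 55.5 without Prepuberty 2 and 55.6 without Tumor 1. The edgeR test called it lower in Tumor than in DCIS (adjusted p = 0.0380), as the 1 member called of 6 tested, where 13.6% of the 10596 genes were called and 6.55% were called lower (743 higher and 694 lower, or 1196 and 410 with plain library totals). It did not pass without DCIS 2 (0.0818), Tumor 1 (0.177) or Tumor 2 (0.12), nor with a mitochondrial limit of 5% (0.0571).

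Most Cfd UMIs lay in cells that also held RNA of fat-cell genes. The 10 adipocyte markers, among them Adipoq, Plin1, Car3 and Retn, summed to 319 and 684 CPM in Prepuberty endothelial-like cells, to 49.0 and 180 CPM in DCIS and to 6.60 and 33.3 CPM in Tumor, with 9 of the 10 at 0 in each Tumor library. Cells with an adipocyte-marker UMI were 220 of 712 and 391 of 672 in Prepuberty and 48 of 426 and 106 of 355 in DCIS. They held 905 of 931, 6818 of 6878, 76 of 85 and 731 of 765 Cfd UMIs. Without these cells Cfd stood at 8.10 and 29.7 CPM in Prepuberty, at 3.70 and 19.2 CPM in DCIS and at 0 in Tumor, and it no longer passed (adjusted p = 0.104). Cfd thus moved with the fat-cell markers across libraries and across cells of the class. By cluster it was nearly all in cluster 5, led by Gpihbp1, Cldn5 and Cyp1a1, at 681 CPM over all libraries, against 24.5 CPM in cluster 12 and 0.87 CPM in cluster 20. When libraries were clustered without integration, an endothelial cluster led by Igfbp3, Kcne3 and Esm1 held 65 and 16 Tumor cells and 0 cells of the other libraries. The cluster led by Cyp1a1, Cldn5 and Gpihbp1 then held 5 and 11 Tumor cells. The part of this split in the Cfd difference was not tested. Fibroblast-like cells held 3.99 and 22.6 CPM in Prepuberty and at most 1.89 CPM later.

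**Figure D5:**
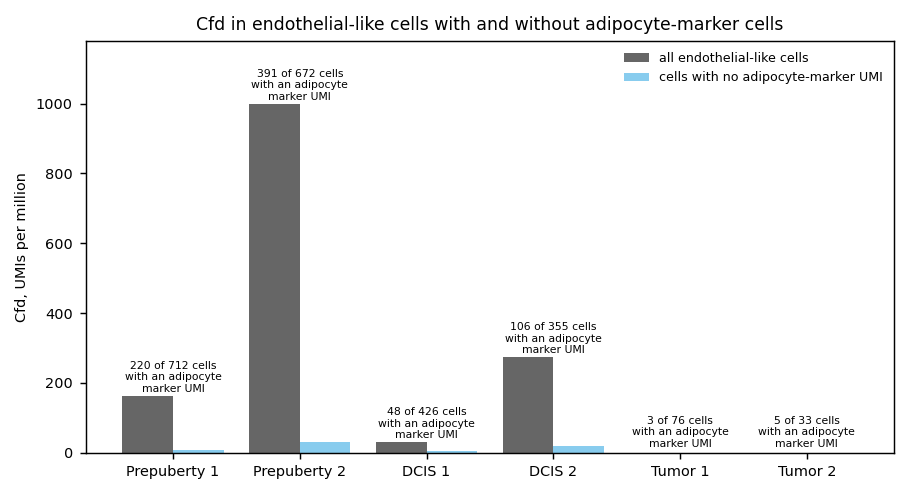
Cfd in endothelial-like cells of each library, as bars of CPM over all cells and over cells without an adipocyte-marker UMI, with the number of cells that held such a UMI written above. Cfd falls from 999 to 29.7 CPM in Prepuberty 2 when cells with an adipocyte-marker UMI are left out, and both Tumor libraries are at 0.

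Over the 24 sums of 4 classes and 6 libraries, which share library and depth within a library, the genes whose log2(CPM + 1) was most like each member were as follows. For C1qa these were Il1b (r = 0.99), Cd72 and Tnfaip8l2, and for C1qb they were Cd52, Ctss and Cd72, all known from myeloid cells or other leukocytes. C1qc shared the C1qa set. C1ra was nearest to Gstm2 (r = 0.96), C1rb and Efemp1, and C1s1 to C1s2 (r = 0.96), Serpina3n and Tnxb, so each protease had its own close copy among its 3 nearest genes. C3 was nearest to S1pr2 (r = 0.93), Ptges and Manbal, C4b to Hsd11b1 (r = 0.90), Serpinf1 and Olfml3, and Cfb to Ccl7 (r = 0.88), Ehd1 and Ccl8. Cfd was nearest to Car3 (r = 0.94), Cyp1a1 and Retn, of which Car3 and Retn are in the adipocyte list. Among the members, C1qa and C1qc had r = 1.00 and C1ra and C1s1 had r = 0.95, while Cfd and C3 had r = -0.14.

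A further 47 complement genes, from recognition molecules and terminal components to regulators and receptors, were listed and 46 were in the files. Between 15 and 16 of them were tested per class, and in Tumor against DCIS 1 was called lower in epithelial-like cells, 1 in fibroblast-like cells and 1 in endothelial-like cells, with 0 called in macrophage-like cells and 0 higher anywhere. Of all genes tested, 0.773%, 5.13%, 6.55% and 3.98% were called lower in these classes, in the same order. Clu, which encodes clusterin, a fluid-phase inhibitor of the terminal complex, fell by 2.34 in epithelial-like cells (adjusted p = 0.0481) and fell by 3.24 in endothelial-like cells (adjusted p = 0.00473). With the replicate block 0 genes were called in epithelial-like cells in this comparison, so the Clu call there was lost. The endothelial-like call of Clu held in all 6 leave-outs (adjusted p up to 0.0327), whereas the epithelial-like call was lost in 4 (up to 0.29) and kept without Tumor 1 or Tumor 2. C1rb, the close copy of C1ra, fell by 2.55 in fibroblast-like cells (adjusted p = 0.0198), a call lost without DCIS 1 (0.116), DCIS 2 (0.12) or Tumor 2 (0.0575). In DCIS against Prepuberty none of the listed genes was called.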

How the data were processed

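Single-cell RNA was measured on the 10x Genomics platform in 6 libraries, 2 for each of Prepuberty, DCIS and Tumor. The deposited matrices hold raw UMI counts per gene and barcode that the authors made with Cell Ranger (3.0.2 in the matrix header). The submitters' processing notes also name mm10, STAR, SAMtools, Picard and Salmon without a role. Of the 31055 feature IDs, 31011 matched the GENCODE vM21 annotation. Cells with at least 200 genes and under 10% mitochondrial UMIs were kept, and within each library the highest doublet scores (Scrublet in scanpy 1.11.5, 0.8% per 1000 cells) were removed. The automatic doublet threshold was not used. Libraries were integrated and clustered with Seurat 5.3.0 (R 4.3.3, 20 dimensions, resolution 0.8, 1979 features with no complement gene), which gave 25 clusters, 5 of them unnamed. Of the unnamed, clusters 10, 14 and 19 held 336, 294 and 156 cells of Tumor 1 and 217, 297 and 142 of Tumor 2. The same clusters held 244, 3 and 1 cells of DCIS 1 and 114, 35 and 4 of DCIS 2. These cells belong to none of the 4 classes.

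Clusters were named "-like" from markers that the complement members are not part of. Counts were summed per library and class, and all 3 states were fitted together with edgeR 4.0.16 (filterByExpr, TMM, quasi-likelihood F test, 2-sided) with Benjamini-Hochberg adjustment over all genes tested and a threshold of 0.05. Differences between classes came from 1 joint fit over classes with the library as a block. Each SE is the absolute log2 fold change divided by the square root of the test's F value. It is not a standard error given by the fit. A class needed 10 cells in a library. CPM and UMI shares carry 95% exact intervals that cover counting error only, and a count of 0 allows 3 UMIs. The total of 28564804 to 57189896 UMIs per library sets the precision. The test was checked on simulated counts. The members and the gene lists were chosen with earlier results of these data known. The genes named beyond the members are those past the threshold among the other listed complement genes, and the 3 genes with the highest correlation with each member. Alternatives were RLE scaling, DESeq2 1.42.0, no low-count filter, the 4 libraries compared, a replicate block, thinned sums, other cell filters and classes, and leaving out each library. Chosen after seeing the data were plain totals, classes without neutrophil-marker cells, adipocyte-marker cells or fibroblast-like cluster 0, and the tests of all pairs of classes outside the 3 planned ones, with each library left out, and macrophage-like levels by cluster without integration. A difference between classes in 1 listed gene other than those named is not reported here.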

Additional observations from a re-analysis of the deposited data

Results flagged for a closer look

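The changes of some complement genes differed between cell classes by a test of the difference itself, in 1 fit over the 4 classes with the library as a block (edgeR's quasi-likelihood test with Benjamini-Hochberg adjustment over 13674 genes). All 6 pairs of classes were compared in both steps, most of them chosen after seeing the data. From Prepuberty to DCIS, the C1s1 change in epithelial-like cells minus that in fibroblast-like cells was -3.23 (SE 0.61, adjusted p = 0.0447, with 0.197% of genes called). The epithelial-like values rest on 47, 25, 29 and 17 UMIs, and Dcn, a matrix gene of fibroblasts, stood in the same cells at 92.3 and 219 CPM in Prepuberty and at 33.4 and 132 CPM in DCIS, whose part in the difference was not tested.

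From DCIS to Tumor, the C3 change in epithelial-like cells minus that in macrophage-like cells was 2.19 (SE 0.51, adjusted p = 0.0257, with 4.28% of genes called), since C3 differed more in macrophage-like cells. The same difference was -2.60 for C4b (adjusted p = 0.0247), -3.05 for Cfb (adjusted p = 0.0416) and -1.61 for C1qbp (adjusted p = 0.0225), the gene of a C1q-binding protein found mainly in mitochondria. In fibroblast-like minus macrophage-like cells it was -2.62 for C4b (adjusted p = 0.0151, with 6.51% of genes called) and -2.69 for C1qbp (adjusted p = 0.00139). The macrophage-like C4b values rest on 2 to 87 UMIs per library. Without Tumor 1 the Cfb difference was -1.15 (adjusted p = 0.701), and without Tumor 2 that of C3 was 1.61 (adjusted p = 0.149).

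For Clu the change in epithelial-like cells minus that in fibroblast-like cells was -3.84 (adjusted p = 0.0402), and in fibroblast-like minus endothelial-like cells it was 4.72 (adjusted p = 0.0416, with 2.25% of genes called). Fibroblast-like Clu stood at 19.6 and 15.7 CPM in DCIS, and at 10.1 CPM in Tumor 1 against 218 CPM in Tumor 2, where 44.4% of these cells held T antigen. Without Tumor 2 the Clu differences were -1.07 (adjusted p = 0.478) and 2.03 (adjusted p = 0.298). The C1qbp change in macrophage-like minus endothelial-like cells was 2.26 (adjusted p = 0.00726, with 3.17% of genes called). Leaving out DCIS 1 or DCIS 2 ended the call of each difference given here. The C1s1 call also ended without Prepuberty 2 (-2.40). In epithelial-like minus macrophage-like cells, the C4b call ended without Tumor 1 (-1.99) and the C1qbp call without Tumor 2 (-1.36). Both Clu calls also ended without either Prepuberty library, with values of -3.83 and 4.72 each time. A flag for a sample far from its group was not possible, as each state had 2 libraries.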

How the results depend on the processing

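Among the members, 23 alternative values lost a call, 44 gained one, 1418 stayed on their side of the threshold and 0 of the called values changed sign. C3 in macrophage-like cells kept its call throughout. Cfd in endothelial-like cells passed in DCIS against Prepuberty with the replicate block (-1.82, adjusted p = 0.038), the 1 member call that the block changed. The labels name no pairs, and deviations of equally numbered libraries correlated weakly (r between -0.07 and 0.35). The block gave 13 calls in fibroblast-like cells, 18 in macrophage-like cells and 86 in endothelial-like cells for DCIS against Prepuberty, and 0 in epithelial-like, 2195 in fibroblast-like, 669 in macrophage-like and 1809 in endothelial-like cells for Tumor against DCIS. Without the filter on low counts, the counts of genes called were 665, 345, 240 and 436 for DCIS against Prepuberty and 2006, 3034, 1164 and 2312 for Tumor against DCIS (epithelial-like, fibroblast-like, macrophage-like, endothelial-like), and 2039, 852 and 1107 for the differences of fibroblast-like with epithelial-like, fibroblast-like with endothelial-like and epithelial-like with endothelial-like cells. DESeq2 gave 283, 80, 62 and 57 for DCIS against Prepuberty, and 1534 and 2407 for Tumor against DCIS in epithelial-like and fibroblast-like cells. With only the 4 libraries compared, epithelial-like cells gave 1 and 16 calls, and macrophage-like cells 44 for DCIS against Prepuberty. Thinned sums gave 285 calls in macrophage-like and 630 in endothelial-like cells for Tumor against DCIS, a higher doublet removal rate 6 in macrophage-like cells for DCIS against Prepuberty, and a joint fit of only the 2 types compared 862 for the fibroblast-like and epithelial-like difference. For Tumor against DCIS, clusters without integration gave 527 calls in epithelial-like and 902 in fibroblast-like cells, classes from markers of each cell 431 and 901 there (5 in macrophage-like cells for DCIS against Prepuberty), the fibroblast-like class without cluster 0 gave 808, and plain library totals gave 3031 in fibroblast-like and 899 in macrophage-like cells. The cause of these moves was not tested. TMM moved the median gene relative to plain totals by -0.41, -0.72, -0.60 and -0.36 in Tumor against DCIS and by 0.11, 0.23, 0.16 and 0.32 in DCIS against Prepuberty, in the same order of classes. Leaving out 1 library gave 0 to 2, 0 to 0, 0 to 63 and 0 to 11 calls for DCIS against Prepuberty, 0 to 1111, 4 to 2122, 18 to 900 and 405 to 1157 for Tumor against DCIS, and 117 to 1386, 22 to 351 and 30 to 522 for the differences between classes. The lowest counts for Tumor against DCIS came without DCIS 2 in epithelial-like (0), fibroblast-like (4) and macrophage-like cells (18), and without DCIS 1 in endothelial-like cells (405). Macrophage-like cells could not be fitted without integration, as the cluster then named macrophage-like held fewer than 10 cells in 4 libraries and most other cells of the class lay in an unnamed cluster. With 2 libraries per state, 84 to 425 macrophage-like cells and 33 to 76 Tumor endothelial-like cells, the values of C1q, C4b and the endothelial-like members rest on few libraries and cells.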
